A study of Rattus norvegicus with 9 samples.

Results

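The expression of 10 genes of cartilage and of the joint surface was examined in RNA of rat tibia. They were chosen by symbol (10 of 23768 gene rows in the count table, all 10 present), and all 10 passed the filter on low counts that left 16816 genes for testing. The libraries came from tibia of male Sprague Dawley rats and form 3 groups of 3. The Model group holds libraries 1, 2 and 5, while libraries 2, 3 and 4 make up each of GelMA and PMLGH. Gelatin methacryloyl, a modified gelatin that sets to a hydrogel when cross-linked, is commonly abbreviated GelMA. The study's title speaks of diabetes, bone healing and a peptide that acts like LOX, the lysyl oxidase that starts collagen cross-linking. The labels give neither the rats' age, the time of sampling, what was done to the Model group nor what PMLGH stands for. Whether libraries stem from different animals is not stated either, so p-values measure the spread between libraries, which may be technical. They also do not say which part of the tibia was taken.

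Cartilage is built around a fibril of type II collagen (Col2a1) that carries type IX collagen on its surface and type XI collagen inside. Aggrecan, a proteoglycan with many chondroitin sulfate chains, fills the space between the fibrils with water. In a long bone this tissue is found in the growth plate, where chondrocytes enlarge and switch to type X collagen before bone replaces them, at the joint surface, and in the callus of a healing fracture. The joint surface is coated with lubricin, the product of Prg4.

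Promoter sequences from RefSeq (GRCr8) were held for 7 of the 10 genes, as windows of 250 bases before to 50 after each start. Those of Acan, Prg4 and Col10a1 are shown. They were picked with the motif matches known, in place of a first choice of Acan, Comp, Prg4 and Cytl1. The windows of Col9a1, Col9a2, Comp and Cytl1 held none of the 5 motifs. Acan lies at chr1:142390701-142391000 on the + strand, Prg4 at chr13:65054176-65054475 on the - strand and Col10a1 at chr20:39737286-39737585 on the + strand. Capitals mark matches, on either strand, to TATAAA (the TATA box), GGGCGG (the GC box), ACAAAG or ACAATG (forms of the SOX motif) and TGTGGT (the core of the RUNX motif).
Acan: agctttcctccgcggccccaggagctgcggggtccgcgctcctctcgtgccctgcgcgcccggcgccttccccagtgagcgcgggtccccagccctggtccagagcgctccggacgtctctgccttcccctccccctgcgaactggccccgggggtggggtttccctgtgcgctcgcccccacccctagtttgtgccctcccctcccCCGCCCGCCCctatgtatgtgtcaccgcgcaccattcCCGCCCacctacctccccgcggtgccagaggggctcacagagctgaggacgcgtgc
Prg4: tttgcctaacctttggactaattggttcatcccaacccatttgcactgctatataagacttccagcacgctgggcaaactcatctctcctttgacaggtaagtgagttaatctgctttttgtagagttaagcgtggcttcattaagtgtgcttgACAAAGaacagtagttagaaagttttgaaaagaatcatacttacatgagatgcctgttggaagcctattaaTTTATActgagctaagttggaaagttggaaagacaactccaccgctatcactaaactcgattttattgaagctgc
Col10a1: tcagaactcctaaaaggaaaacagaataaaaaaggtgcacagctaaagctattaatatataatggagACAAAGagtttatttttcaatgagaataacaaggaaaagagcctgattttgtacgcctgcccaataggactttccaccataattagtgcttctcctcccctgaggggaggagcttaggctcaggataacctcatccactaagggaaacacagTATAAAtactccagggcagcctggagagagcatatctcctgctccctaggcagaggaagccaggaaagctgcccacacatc
The Acan window is 73.0% G and C and holds 3 matches to GGGCGG, a pair of them overlapping. The Prg4 window is 39.3% G and C and that of Col10a1 44.0%, and each holds 1 match to TATAAA, which in Prg4 lies on the opposite strand, and 1 to ACAAAG. Among 33469 promoter windows of the same length, TATAAA was found in 14.2%, GGGCGG in 33.1%, ACAAAG in 18.8%, ACAATG in 13.2% and TGTGGT in 17.3%. A match is a description of letters and not a site that was shown to be used.

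Total counts ran from 34571478 to 37166383 per library, and the 10 genes took 0.206% to 0.306% of them. Model 2 differed most from its group: chi-square values averaged 33.5 per gene towards Model 1 and 28.1 towards Model 5, and 15.9 between those. Without Model 2 no call of the 10 genes against Model changed. Every gene of the marker list of chondrocytes (Col2a1, Acan, Sox9, Col9a1, Matn1, Comp, Hapln1, Cnmd, Ucma and Snorc) had counts in all 9 libraries. So did every gene of the osteoblast, skeletal muscle and erythroid lists, and having counts therefore does not tell these tissues apart. Skeletal muscle markers, a tissue other than bone, had a summed level of 543 to 845 CPM (counts scaled to a common library size) in Model, 2637 to 3254 in GelMA and 870.4 to 1231 in PMLGH, and all 12 passed as higher in GelMA than in either other group. Among all tested genes 12.7% passed as higher in GelMA than in Model and 1.64% as lower in PMLGH than in GelMA. Erythroid markers summed to 11380 to 14130 CPM in Model, 9682 to 10420 in GelMA and 9164 to 10300 in PMLGH, and those of fibroblasts, periosteum and tendon to 1109 to 1331, 2812 to 3217 and 4145 to 4851. Osteoblast markers summed to 11260 to 14280 CPM in Model, 22490 to 24760 in GelMA and 22820 to 26640 in PMLGH. The part that muscle, marrow or soft tissue in the sample has in the differences below was not tested. In bulk RNA, fewer cells of a type and less RNA per cell cannot be told apart.

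To set the genes beside each other, levels per length were taken from the deposited FPKM (fragments scaled to gene length and library size). In Model, Col2a1 was far ahead at 274.8 ± 34.7 FPKM (SD, n = 3). Col10a1 at 71.1 ± 11.4 and Cytl1 at 66.1 ± 4.33 FPKM followed and overlapped, then Comp at 48.8 ± 2.77 and Prg4 at 41.5 ± 7.14 FPKM, which overlapped too. Col9a2 (23.2 ± 2.79), Col9a1 (21.1 ± 3.52) and Acan (18.95 ± 0.77 FPKM) came next, and each overlapped with its neighbour in this order. Sox9 at 0.9605 ± 0.215 and Matn1 at 0.2115 ± 0.155 FPKM were far below the rest. Thus the scarcest transcripts were that of the transcription factor that directs cartilage formation and that of a matrilin best known from tracheal cartilage. Col2a1 and Col10a1 ranked 1 and 2 in all 3 groups, and Sox9 and Matn1 ranked 9 and 10. Cytl1 ranked 3 in Model, 5 in GelMA at 45.5 ± 0.732 FPKM and 4 in PMLGH at 46.7 ± 17.1 FPKM, while Comp ranked 3 in GelMA and PMLGH.

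**Figure D1:**
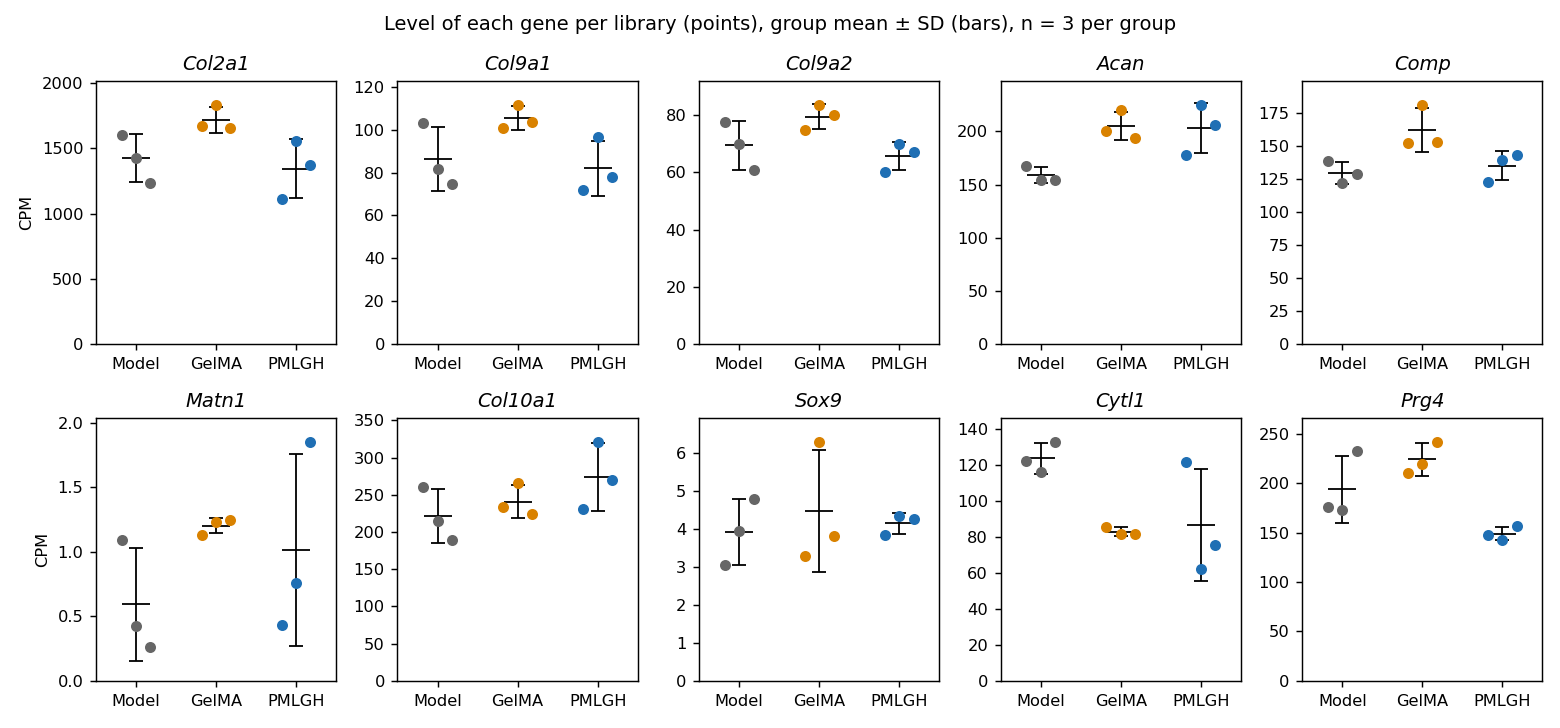
Level in CPM (linear axes from 0) of each of the 10 genes in every library, with the group mean ± SD over 3 libraries. Acan libraries of Model lie at 154.3 to 167.3 CPM, below all GelMA and PMLGH libraries, and Prg4 libraries of PMLGH lie at 142.9 to 156.4 CPM, below all others.

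Most of the 10 genes moved little, and no direction was shared by all. With PMLGH against Model, 1 gene rose and 2 fell, where 27.5% of all tested genes passed (15.7% higher and 11.9% lower). In GelMA against Model, 2 rose and 1 fell, where 22.6% of all genes passed (12.7% higher and 9.88% lower). PMLGH against GelMA gave 1 gene that fell, where 3.44% passed (1.80% higher and 1.64% lower). The shares against Model are near those of all genes. The median log2 fold change of the 10 genes was -0.01 for PMLGH against Model, 0.24 for GelMA against Model and -0.26 for PMLGH against GelMA, where the medians over all tested genes were 0.02, 0.03 and 0.00. The first of these was 0.06 without PMLGH 2 and 0.04 without Model 1. The 3 comparisons share their groups, so their values are not independent. In the tests of edgeR's quasi-likelihood model below, p-values are adjusted over all tested genes and the threshold is 0.05.

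Libraries did not overlap for 2 of the 10 genes between PMLGH and Model (39.4% of all genes; 1 higher, 21.1%, and 1 lower, 18.4%), for 5 between GelMA and Model (36.6%; 4 of them higher in GelMA, a direction found for 19.8% of all genes, and 1 lower, 16.8%) and for 5 between PMLGH and GelMA (23.7%). All 5 of the last were lower in PMLGH (11.4% of all genes in that direction).

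**Figure D2:**
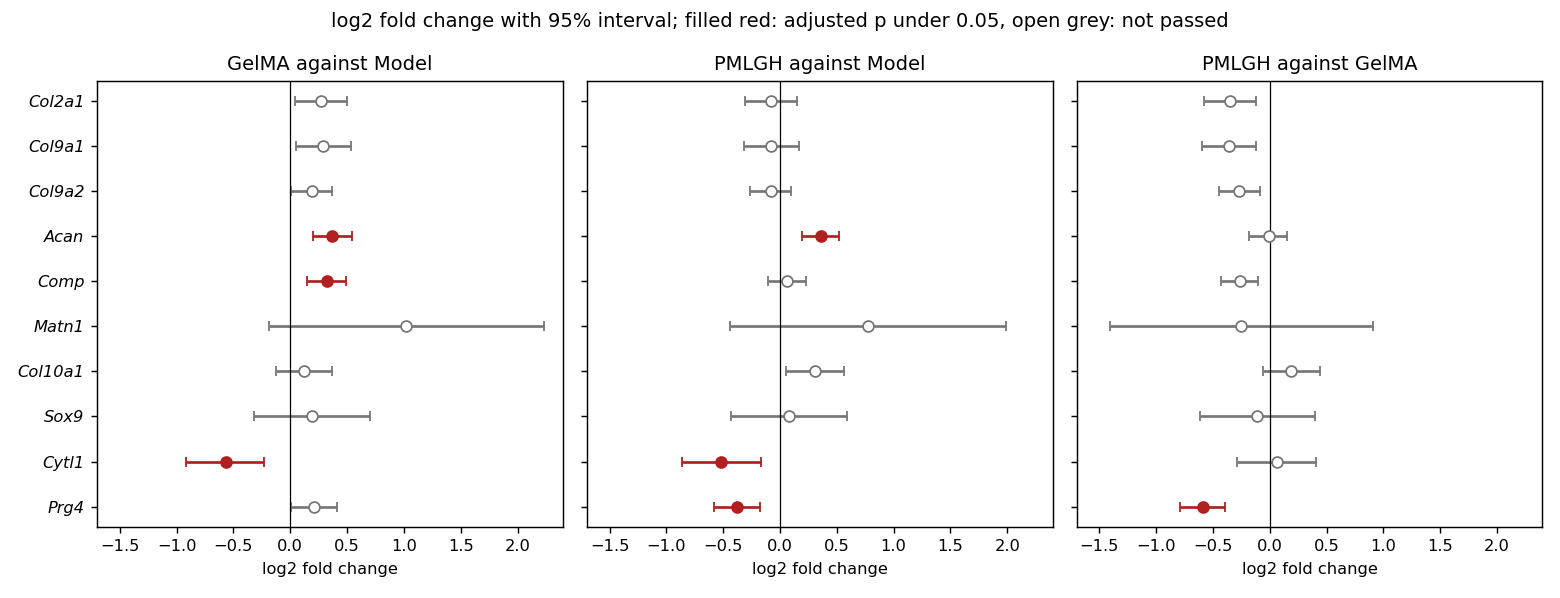
log2 fold change (x axis) of each gene in the 3 comparisons with its 95% interval, filled red where the adjusted p is under 0.05. Acan lies at 0.37 and 0.36 against Model and at -0.01 between PMLGH and GelMA, and Prg4 lies at -0.59 between PMLGH and GelMA.

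Among the fibril collagens, Col2a1, the main chain of cartilage fibrils, had 1603, 1428 and 1237 CPM in Model 1, 2 and 5, 1668, 1831 and 1654 CPM in GelMA 2, 3 and 4, and 1109, 1554 and 1371 CPM in PMLGH 2, 3 and 4. All GelMA libraries were above all others, and those of Model and PMLGH overlapped. No comparison passed. The log2 fold change was 0.27 ± 0.11 (approximate SE) for GelMA against Model (edgeR adjusted p = 0.086) and -0.35 ± 0.11 for PMLGH against GelMA (adjusted p = 0.099). For PMLGH against Model it was -0.08 with a 95% interval of -0.31 to 0.15 (adjusted p = 0.63). The difference between PMLGH and GelMA passed in a fit to those 6 libraries alone (adjusted p = 0.021) and without Model 2 (0.041) or PMLGH 3 (0.047). It also passed without a filter on low counts (0.011) and with the library number as a block in those 6 libraries (0.0016). Over all alternatives the value ran from -0.47 to -0.24.

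Col9a1 and Col9a2 encode chains of type IX collagen, which sits on the surface of type II fibrils. Col9a1 had 103, 81.8 and 74.4 CPM in Model 1, 2 and 5, 100.7, 111.5 and 103.7 CPM in GelMA 2, 3 and 4, and 71.8, 96.4 and 77.8 CPM in PMLGH 2, 3 and 4. Col9a2 had 77.7, 70.0 and 60.7 CPM in Model, 74.8, 83.6 and 79.9 CPM in GelMA and 60.3, 70.0 and 67.1 CPM in PMLGH, in the same order of libraries. For both, every PMLGH library was below every GelMA library, and Model overlapped with both groups. The log2 fold change of PMLGH against GelMA was -0.36 ± 0.11 for Col9a1 and -0.27 ± 0.08 for Col9a2 (edgeR adjusted p = 0.10 for each). Col9a1 passed in the fit to those 6 libraries alone (adjusted p = 0.013), with DESeq2 (0.039) and without Model 1 (0.037), Model 2 (0.045) or PMLGH 3 (0.038), and Col9a2 passed in the fit to the 6 libraries (0.016). Both also passed without a filter on low counts (0.015 and 0.039) and with the library number as a block (0.0012 and 0.0057). Against Model, GelMA gave 0.29 ± 0.11 for Col9a1 and 0.19 ± 0.08 for Col9a2 (adjusted p = 0.082 and 0.12). Without Model 1 both passed, as did Col2a1 (0.37, adjusted p = 0.038), with Col9a1 and Col9a2 at these values (0.43, adjusted p = 0.010, and 0.28, adjusted p = 0.034). Col2a1 and Col9a1 also passed without a filter on low counts (edgeR adjusted p = 0.041 and 0.042).

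Acan, which encodes the core protein of aggrecan, was higher in GelMA and PMLGH than in Model. Its level was 167.3, 154.3 and 154.7 CPM in Model 1, 2 and 5, 200.7, 220.4 and 194.3 CPM in GelMA 2, 3 and 4, and 178.0, 224.9 and 206.5 CPM in PMLGH 2, 3 and 4. Each library of GelMA and PMLGH was above all of Model. Acan rose by 0.37 ± 0.08 on the log2 scale in GelMA (1.29-fold, edgeR adjusted p = 0.0034) and by 0.36 ± 0.08 in PMLGH (1.28-fold, adjusted p = 0.0034). Between PMLGH and GelMA the value was -0.01 with a 95% interval of -0.18 to 0.15. Both calls against Model held in every alternative run. Muscle markers were 12 of 12 higher in GelMA and 8 of 12 in PMLGH in the same comparisons (3 of 12 without PMLGH 4). Among all tested genes 12.7% rose in GelMA and 15.7% in PMLGH.

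Comp, the cartilage oligomeric matrix protein, is a pentamer that binds collagens in cartilage and also in tendon. It had 138.7, 121.9 and 129.2 CPM in Model 1, 2 and 5, 152.1, 181.3 and 153.6 CPM in GelMA 2, 3 and 4, and 122.8, 139.8 and 143.1 CPM in PMLGH 2, 3 and 4. GelMA lay above both other groups without overlap, and Model and PMLGH overlapped. Comp rose by 0.32 ± 0.08 in GelMA against Model (edgeR adjusted p = 0.0086), a call that was lost without GelMA 3 (0.21, adjusted p = 0.095; range over its alternatives 0.0031 to 0.095). Against GelMA, PMLGH gave -0.26 ± 0.08 (adjusted p = 0.090), which passed in the fit to those 6 libraries alone (adjusted p = 0.035), with DESeq2 (0.043) and without Model 2 (0.030). It also passed without a filter on low counts (0.032) and with the library number as a block in those 6 libraries (0.011). Tendon also makes Comp. Of the fibroblast, periosteum and tendon markers 12 of 14 rose in GelMA against Model, with none lower, where 12.7% of all tested genes rose. In PMLGH against GelMA 4 of 14 rose, where 1.80% of all tested genes did. Of the 12, Tnmd was lost with DESeq2 (adjusted p = 0.11) and Scx without GelMA 3 (edgeR adjusted p = 0.089). The part of these tissues in the level of Comp was not tested.

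Matn1 encodes matrilin, an adaptor between collagen and proteoglycan. With 37, 15 and 9 counts in Model 1, 2 and 5, 41, 45 and 46 in GelMA 2, 3 and 4, and 16, 28 and 68 in PMLGH 2, 3 and 4, it rests on few reads. The GelMA counts lay close together, and those of PMLGH spanned from near the lowest to the highest of all 9. No comparison passed, and the 95% interval of the log2 fold change ran from -0.19 to 2.23 for GelMA against Model and from -0.44 to 1.99 for PMLGH against Model.

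Type X collagen, encoded by Col10a1, marks chondrocytes that have become hypertrophic. Col10a1 had 261.2, 215 and 189.4 CPM in Model 1, 2 and 5, 233.1, 265.5 and 223.7 CPM in GelMA 2, 3 and 4, and 230.5, 321.5 and 270.6 CPM in PMLGH 2, 3 and 4. All 3 groups overlapped. The log2 fold change of PMLGH against Model was 0.31 ± 0.12 (edgeR adjusted p = 0.068), and it passed without Model 1 (0.44, adjusted p = 0.014) or PMLGH 2 (0.40, adjusted p = 0.026). It also passed without a filter on low counts (0.28, adjusted p = 0.026). For GelMA against Model it was 0.12 ± 0.12 and for PMLGH against GelMA 0.19 ± 0.12 (adjusted p = 0.53 and 0.49).

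Libraries of a group differed in how often they held the highest or lowest level of the 10 genes. Model 1 was the highest of its group for 7 of the 10 genes, GelMA 3 for 7 and PMLGH 3 for 6, while PMLGH 2 was the lowest of its group for 8. Not all genes went together: Model 5 was the highest for 3 and the lowest for 5, and PMLGH 2 was the highest for 1. Such counts over all tested genes were not computed. Pairs of the genes were also compared within the same library, in raw counts, which needs no scaling between libraries. Col10a1, Acan, Col9a1, Col9a2, Comp and Prg4 were each set against Col2a1, and 3 further ratios were Col9a1 to Col9a2, Col10a1 to Acan and Prg4 to Comp. The ratios were chosen after the counts were seen, and 27 comparisons were made, in 10 of which the groups did not overlap. These comparisons share genes and libraries, and the share without overlap over other pairs of genes was not computed. With 3 against 3 libraries no such comparison can reach the threshold.

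Per 100 counts of Col2a1 there were 16.3, 15.1 and 15.3 counts of Col10a1 in Model 1, 2 and 5, 14.0, 14.5 and 13.5 in GelMA 2, 3 and 4, and 20.8, 20.7 and 19.7 in PMLGH 2, 3 and 4. The groups did not overlap: PMLGH was highest, Model between and GelMA lowest. The mean ratio was 20.4% ± 0.58 in PMLGH (SD, n = 3), 15.6% ± 0.65 in Model and 14.0% ± 0.49 in GelMA, a log2 difference of 0.39 for PMLGH against Model, -0.15 for GelMA against Model and 0.54 for PMLGH against GelMA. For each pair the exact two-sided permutation p was 0.1, the smallest that 3 against 3 libraries allow, and 0.27 adjusted over the 27 comparisons. Leaving out any 1 library gave 0.37 to 0.43 for PMLGH against Model and 0.52 to 0.57 for PMLGH against GelMA.

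Acan per 100 counts of Col2a1 came to 10.4, 10.8 and 12.5 in Model, 12, 12 and 11.7 in GelMA and 16.1, 14.5 and 15.1 in PMLGH, in the same order of libraries. PMLGH was above both other groups without overlap (log2 difference 0.44 against Model and 0.35 against GelMA, exact permutation p = 0.1 and 0.27 adjusted, for each). GelMA and Model overlapped. Col9a1 came to 6.06% ± 0.35 of the Col2a1 count in Model, 6.13% ± 0.12 in GelMA and 6.12% ± 0.41 in PMLGH, and Comp to 9.22% ± 1.1, 9.44% ± 0.41 and 10.2% ± 1.1, all overlapping. Col9a2, the other type IX chain, was at 4.89% ± 0.034 in Model and, without overlap, at 4.63% ± 0.18 in GelMA (log2 difference -0.08), while PMLGH at 4.94% ± 0.47 overlapped with both. Col10a1 to Acan was lower in GelMA, at 117% ± 2.8, than in Model (139% ± 17) and PMLGH (134% ± 7.4), and Prg4 to Comp was lower in PMLGH, at 111% ± 9, than in Model (150% ± 28) and GelMA (139% ± 18), again without overlap. For each of these 5 differences the exact permutation p was 0.1, and 0.27 adjusted. Prg4 to Col2a1 and Col9a1 to Col9a2 overlapped between all groups. A ratio shows that the 2 genes changed unequally and not which of them changed.

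**Figure D3:**
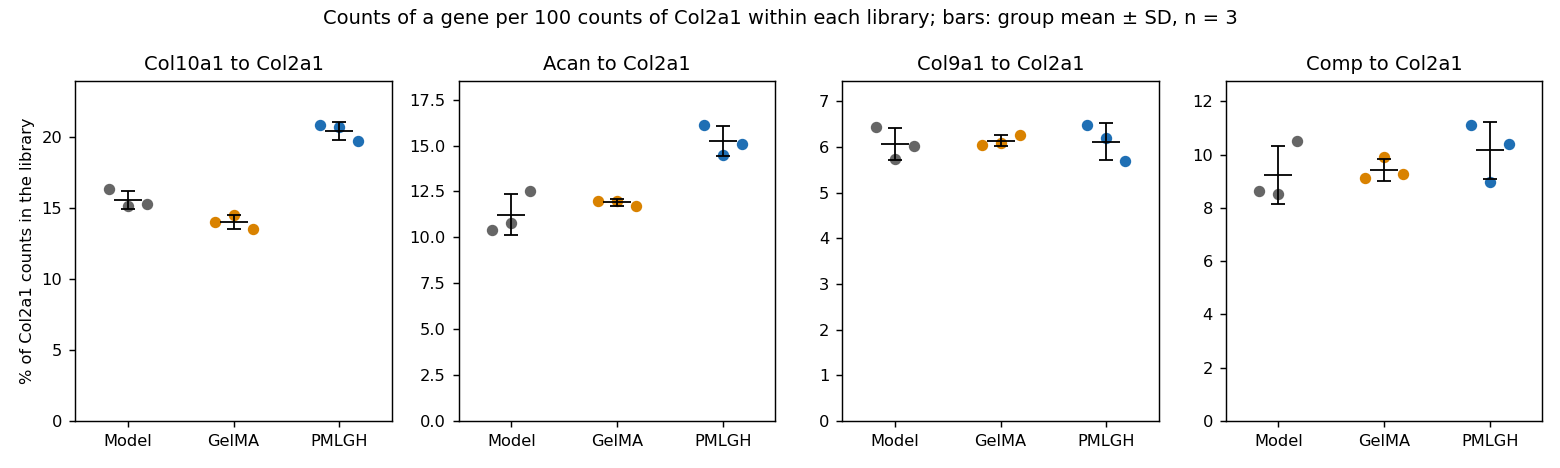
Counts of Col10a1, Acan, Col9a1 and Comp as a percentage of the Col2a1 count of the same library (linear axes from 0), with the group mean ± SD over 3 libraries. Col10a1 lies at 19.7% to 20.8% in PMLGH, above all Model and GelMA libraries, while Col9a1 overlaps between all groups.

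The transcription factor Sox9, which starts and keeps up the chondrocyte program, had 103, 140 and 163 counts in Model 1, 2 and 5, 119, 230 and 141 in GelMA 2, 3 and 4, and 142, 161 and 156 in PMLGH 2, 3 and 4. GelMA 3 was the highest of all 9 libraries and Model 1 the lowest, and the groups overlapped. Its log2 fold change was 0.08 for PMLGH against Model (95% interval -0.43 to 0.59) and 0.19 for GelMA against Model (-0.32 to 0.70). Both directions turned when a library was left out (-0.08 without Model 1 and -0.16 without GelMA 3).

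Cytl1, a small secreted protein made by chondrocytes and first found in blood progenitor cells, was lower in GelMA and PMLGH than in Model. It had 121.9, 115.9 and 132.9 CPM in Model 1, 2 and 5, 85.7, 81.8 and 81.4 CPM in GelMA 2, 3 and 4, and 121.4, 62.0 and 75.7 CPM in PMLGH 2, 3 and 4. The GelMA libraries were all below Model, and PMLGH 2 lay within the range of Model while the other PMLGH libraries were the lowest of all. Cytl1 fell by 0.57 ± 0.16 on the log2 scale in GelMA (edgeR adjusted p = 0.019) and by 0.52 ± 0.16 in PMLGH (adjusted p = 0.028). Both calls were lost with DESeq2 (adjusted p = 0.065 and 0.092), with a robust spread (0.14 and 0.17) and with limma on both FPKM scales. Over the alternatives they ranged from 0.00012 to 0.14 and from 1.5e-05 to 0.17. The call for GelMA was also lost without Model 5, GelMA 3 or GelMA 4 (edgeR adjusted p = 0.064, 0.054 and 0.053). That for PMLGH was lost without Model 1, Model 5 or PMLGH 4 (edgeR adjusted p = 0.054, 0.079 and 0.12). Without PMLGH 2 the fall in PMLGH was -0.86, and without PMLGH 3 it was -0.33 (adjusted p = 0.12). Erythroid markers, which stand for the marrow, were 9 of 10 lower in GelMA and 10 of 10 lower in PMLGH against Model, with none higher. Among all tested genes 9.88% and 11.9% fell in these comparisons. The part of the marrow in the level of Cytl1 was not tested.

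Prg4 encodes lubricin, the glycoprotein that chondrocytes of the joint surface and cells of the synovial lining secrete into the joint. It had 175.9, 172.8 and 232.9 CPM in Model 1, 2 and 5, 210.3, 219.9 and 242.1 CPM in GelMA 2, 3 and 4, and 147.6, 142.9 and 156.4 CPM in PMLGH 2, 3 and 4. Every PMLGH library was below every library of the other groups, and Model 5 stood with the GelMA libraries. Prg4 fell by 0.59 ± 0.10 in PMLGH against GelMA (0.665-fold, edgeR adjusted p = 0.0022) and by 0.38 ± 0.10 in PMLGH against Model (0.768-fold, adjusted p = 0.0081). Both calls held in every alternative run, although the value against Model was -0.24 without Model 5. For GelMA against Model it was 0.21 ± 0.10 (adjusted p = 0.13), and 0.35 without Model 5 (adjusted p = 0.0049). All 12 muscle markers were lower in PMLGH than in GelMA, and 8 of 12 higher in PMLGH than in Model (3 without PMLGH 4). Among all tested genes 1.64% fell in PMLGH against GelMA and 15.7% rose in PMLGH against Model.

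In PMLGH against GelMA, 1 of 11 lining genes rose, 2 fell and 8 did not pass, with a median of 0.01 (-0.01 under upper-quartile scaling). At an unadjusted p under 0.05 there were 2 higher and 4 lower, and over all genes 1.80% rose and 1.64% fell in that comparison. The 2 lower calls became 1 when any 1 GelMA library, PMLGH 2 or PMLGH 3 was left out. Clic5, a chloride intracellular channel protein, fell by 0.67 ± 0.10 (edgeR adjusted p = 0.00092), after a rise of 0.78 ± 0.10 in GelMA against Model. All 12 muscle markers moved in the same directions in both comparisons, and the part of muscle in the level of Clic5 was not tested. Has2, which makes hyaluronan, went the other way from Prg4: it rose by 1.37 ± 0.22 in PMLGH against GelMA (adjusted p = 0.0022) and by 2.20 ± 0.24 against Model. Against Model, 2 of the 11 rose in PMLGH and none fell at the threshold, where 3 had an unadjusted p under 0.05 in the lower direction and DESeq2 called 1 lower. Without Model 2, 2 were lower. In GelMA 3 rose and 1 fell, and the 3 became 1 without Model 1, Model 5 or GelMA 2, and the 1 became 2 without Model 2. Over all genes 15.7% rose and 11.9% fell in PMLGH, and 12.7% and 9.88% in GelMA, against Model.

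Of 18 tested matrix genes of cartilage outside the 10, 8 rose and none fell in GelMA against Model (median 0.26; DESeq2 gave the same counts, and none had an unadjusted p under 0.05 in the lower direction). The 8 became 3 without GelMA 3 and 5 without GelMA 4. In PMLGH against Model 3 rose, 2 fell and 13 did not pass (median -0.08). The 2 became 4 under upper-quartile scaling, 7 without Model 2 and 1 without PMLGH 2 or PMLGH 3, and the median was 0.01 without Model 1. PMLGH against GelMA gave none higher, 2 lower and 16 that did not pass (median -0.23). In that comparison none had an unadjusted p under 0.05 in the higher direction and 8 in the lower, and DESeq2 called 4 lower. The 2 lower calls became 5 without Model 2 and 1 without GelMA 3 or GelMA 4. These counts include genes that tissues other than cartilage make as well. Of all tested genes, 12.7% rose and 9.88% fell in GelMA against Model, and 15.7% and 11.9% in PMLGH against Model. In PMLGH against GelMA 1.80% rose and 1.64% fell.

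Type XI collagen, which lies inside the fibril, was higher in GelMA and PMLGH. Col11a1 rose by 0.81 in GelMA and 0.78 in PMLGH against Model (edgeR adjusted p = 2.4e-06 and 2.5e-06), from 336 to 589 and 576 CPM, and Col11a2 by 0.63 and 0.36. Both are also made by osteoblasts, and 8 of 10 osteoblast markers rose in PMLGH and all 10 in GelMA against Model, where 15.7% and 12.7% of all tested genes rose. Fmod, fibromodulin, which regulates fibril thickness, rose by 0.50 and 0.58. Chad, chondroadherin, a cell-binding protein of cartilage and bone, fell by 0.40 in PMLGH against Model and by 0.37 against GelMA. Cilp, a protein of the middle layer of joint cartilage, fell by 0.47 in PMLGH against GelMA (adjusted p = 0.0022). The call of Chad against GelMA was lost without GelMA 3, GelMA 4 or PMLGH 3 (adjusted p = 0.068, 0.078 and 0.093). Hapln1, the link protein that fastens aggrecan to hyaluronan, rose by 0.32 in GelMA against Model, a call lost without Model 5, GelMA 3 or GelMA 4 (0.23, 0.25 and 0.29; adjusted p = 0.11, 0.12 and 0.072).

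Regulators of chondrocytes changed in part. Against Model, 5 of 14 rose and 1 fell in PMLGH, and 4 rose and 1 fell in GelMA, with 8 and 9 that did not pass. Of all tested genes, 15.7% rose and 11.9% fell in PMLGH and 12.7% and 9.88% in GelMA. The 4 became 2 without GelMA 3. Of the 5, Runx3 was lost under upper-quartile scaling, in the fit to PMLGH and Model alone (edgeR adjusted p = 0.057 and 0.063) and with limma on both FPKM scales. It was also lost without Model 1, GelMA 3, GelMA 4, PMLGH 2 or PMLGH 3 (edgeR adjusted p from 0.057 to 0.17). Pth1r, the receptor of parathyroid hormone and of the PTHrP signal that holds back hypertrophy, rose by 0.66 in PMLGH and 0.37 in GelMA against Model. It was also the 1 regulator that rose in PMLGH against GelMA (0.29, edgeR adjusted p = 0.021), a call lost with limma on both FPKM scales (adjusted p = 0.11 for each) and when any 1 of the 3 GelMA libraries, PMLGH 2 or PMLGH 3 was left out (adjusted p from 0.054 to 0.12). No regulator fell in that comparison, with edgeR, with DESeq2 or at an unadjusted p under 0.05. Fgfr3, a receptor that slows growth plate cartilage, rose by 0.69 and 0.56 in PMLGH and GelMA against Model. The call for GelMA was lost without GelMA 3 (0.44, adjusted p = 0.056). Trps1, a repressor of hypertrophy, rose by 0.56 and 0.43. Sox6, a partner of Sox9 that also acts in red cell precursors, fell by 0.39 in both. Osteoblasts too express Pth1r and Fgfr3.

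Genes linked to chondrocyte hypertrophy, most of which bone cells share, rose more often than they fell: 7 of 10 rose and 1 fell in PMLGH against Model, and 6 rose and none fell in GelMA (none at an unadjusted p under 0.05 and none with DESeq2). Of all tested genes, 15.7% rose and 11.9% fell in PMLGH and 12.7% and 9.88% in GelMA against Model. The 6 became 3 without GelMA 3 or Model 5, and 1 fell in GelMA without Model 2. Of the 7 in PMLGH, Mef2c and Runx2 were both lost with limma on both FPKM scales (adjusted p from 0.054 to 0.077). Both were also lost without Model 5 or PMLGH 3 (edgeR adjusted p from 0.062 to 0.1). The 1 that fell in PMLGH became 2 without Model 2 and 0 without Model 1, Model 5, PMLGH 2 or PMLGH 3. This gene, Phospho1, was also lost with limma on both FPKM scales and in the fit to PMLGH and Model alone (edgeR adjusted p = 0.057). Alpl, the phosphatase of mineralizing cells, rose by 0.92 and 0.70, and Ibsp, bone sialoprotein, by 0.79 and 0.67. Mmp13, the collagenase of the hypertrophic zone, rose by 0.60 in PMLGH, and Panx3, a channel protein of hypertrophic chondrocytes and osteoblasts, by 0.69. Their values in GelMA were 0.22 and 0.24 and did not pass. Between PMLGH and GelMA no gene of this list passed with edgeR, where 3 had an unadjusted p under 0.05 in the higher and 1 in the lower direction, and DESeq2 called 3 higher. Mmp13 had 0.38 and Panx3 0.45 in that comparison (edgeR adjusted p = 0.072 and 0.075).

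Enzymes that cleave aggrecan or Comp, in a list that includes the inhibitor Timp3, were mostly higher. Of 11, 9 rose and 2 did not pass in PMLGH against Model (median 1.24), and 8 rose and 3 did not pass in GelMA (median 0.64; 7 rose under both other scalings, where Adamts4 was lost, as it was in 13 of its alternatives). None fell with edgeR or DESeq2, or at an unadjusted p under 0.05. Of all tested genes, 15.7% rose in PMLGH and 12.7% in GelMA against Model. Mmp3, stromelysin, rose by 2.19 in PMLGH and 2.50 in GelMA against Model, and Htra1, a secreted serine protease, by 1.24 and 0.92. Adamts1 rose by 1.51 and 0.72, and Adamts12, which cleaves Comp, by 1.38 and 1.12. Adamts4, an aggrecanase, rose by 1.25 in PMLGH, and Adamts5, the other main aggrecanase, by 0.41 in GelMA with 0.20 in PMLGH, which did not pass. The Adamts5 call was lost without GelMA 4 (0.36, adjusted p = 0.055). In PMLGH against GelMA 2 of the 11 rose, none fell and 9 did not pass, where 1.80% of all tested genes rose and 1.64% fell. At an unadjusted p under 0.05 there were 8 higher and 2 lower. The 2 that rose were Adamts1 (0.79, edgeR adjusted p = 0.00022) and Htra1 (0.32, edgeR adjusted p = 0.012). The call of Htra1 was lost with limma on both FPKM scales and without GelMA 2, PMLGH 2 or PMLGH 3. Mmp3 had -0.31 and Adamts5 -0.22, which did not pass. Timp3, an inhibitor of Mmp and Adamts enzymes, had 0.04 in PMLGH and 0.08 in GelMA against Model and did not pass. Fibroblasts make many of these enzymes, and of the fibroblast, periosteum and tendon markers 12 of 14 rose in PMLGH and in GelMA against Model.

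Of 17 genes that build chondroitin sulfate, the sugar chain of aggrecan, 7 rose and 1 fell in PMLGH against Model and 6 rose and 1 fell in GelMA. Of all tested genes, 15.7% rose and 11.9% fell in PMLGH and 12.7% and 9.88% in GelMA against Model. For GelMA the calls of Csgalnact2 and Slc26a2 were both lost without Model 1 or GelMA 3 and in the fit to GelMA and Model alone. For PMLGH both were lost under upper-quartile scaling and without Model 1, GelMA 3, PMLGH 3 or PMLGH 4. Chpf, a polymerase factor, rose by 0.74 in PMLGH and 0.63 in GelMA, Chsy1, a synthase, by 0.47 and 0.35, Ugdh, which makes a sugar precursor, by 0.59 and 0.57, and Papss2, which supplies sulfate, by 0.44 and 0.31. Slc35d1, which carries sugar precursors into the endoplasmic reticulum, fell by 0.38 and 0.35; the call for GelMA was lost on both FPKM scales and without Model 5 (edgeR adjusted p = 0.062). None passed between PMLGH and GelMA with edgeR or DESeq2, where 1 had an unadjusted p under 0.05 in each direction.

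**Figure D4:**
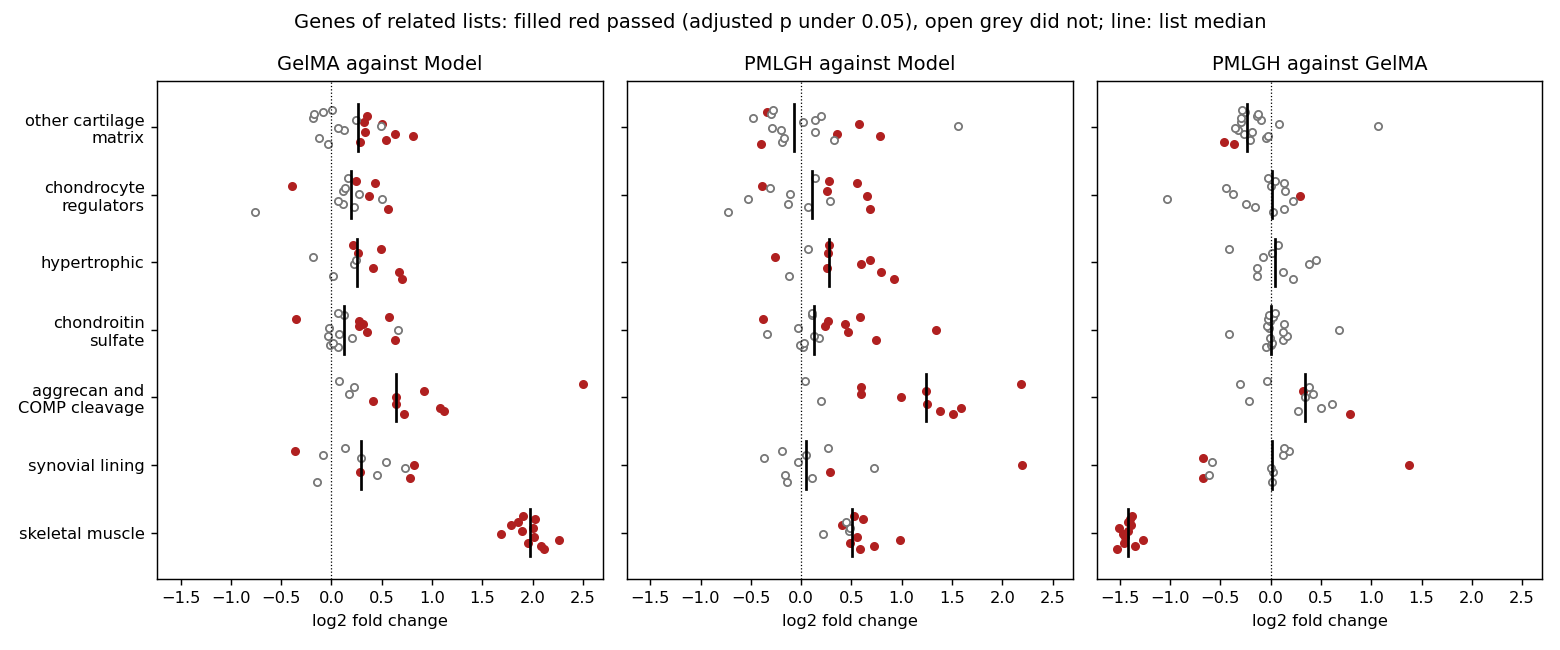
log2 fold change (x axis) of each tested gene of 6 lists related to cartilage and of the skeletal muscle markers, in the 3 comparisons, filled red where the adjusted p is under 0.05, with a line at the list median. The medians of cleavage genes lie at 0.64 and 1.24 against Model, and all 12 muscle genes lie at 1.69 to 2.26 in GelMA against Model.

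The genes whose profile over the 9 libraries came closest to each of the 10 were looked for among 12861 named genes (mean level 1 CPM or more), by the root-mean-square difference of log2 CPM centred on each gene's own mean. For Col2a1 they were Col9a1 (0.062), Col9a3, another chain of type IX collagen (0.069), and Hapln1 (0.073), all genes of cartilage matrix, where the SD of Col2a1 itself was 0.22. Col9a1 had Col2a1, Hapln1 (0.085) and Col9a2 (0.090) as its nearest. Col9a2 had Hapln1 (0.060) first, then Kri1 (0.072) and Lrrc8a (0.08), and neither other member among its 3. The other members did not have each other as neighbours. Acan was nearest to Srgap1 (0.056), Comp to Cog2 (0.064), Col10a1 to Mdfic (0.104), Prg4 to Serpini1 (0.123), Sox9 to Cnpy1 (0.128) and Cytl1 to Rbm15 (0.159). Matn1 was nearest to Myom3, a gene of the muscle M-band, at 0.436 with an SD of 0.86 for Matn1. All genes share the libraries and their scaling, so these distances are descriptions.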

How the data were processed

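The count table deposited by the authors holds raw counts per gene symbol for 9 libraries of total RNA. The deposited FPKM table holds FPKM, which the authors computed per library. Within a relative tolerance of 1e-04 each FPKM follows from its count, the total of its library and a single length per gene, for all 21416 genes with at least a pair of values above 0, so it adds no separate measurement. The submitters' processing notes name DESeq2 and R 3.2.0. The sources used here do not give the aligner, counter, strand setting, build or annotation.

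Counts were filtered by filterByExpr, scaled by TMM and fitted with the quasi-likelihood model of edgeR 4.0.16 (R 4.3.3), 1 mean per group over all 9 libraries, with 6 residual degrees of freedom. Tests were two-sided, with Benjamini-Hochberg adjustment over 16816 genes. The ± after a log2 fold change is its size divided by the square root of F. Alternatives used DESeq2 1.42.0, limma 3.58.1 on log2(FPKM + 1) and log2(FPKM + 0.1), other scalings and filters, and fits without each library. The model was tested on simulated data. A first criterion, a set minimum share of 2-fold changes recovered over all genes, was missed. It was then limited to better-measured genes, where it was met, with the fit left as it was. Genes with few counts, such as Matn1 and Sox9, were recovered less often. Named genes are the 10 genes, up to 4 genes of smallest p per list and comparison, and the 3 nearest genes of each. Timp3, Adamts4, Adamts5, Slc35d1, Csgalnact2, Slc26a2, Runx3, Runx2, Phospho1, Tnmd and Scx were named after their values were seen. So were list genes in comparisons where they were not among the 4. The genes and lists were chosen with earlier results of these data known. Symbols of all 10 genes matched RefSeq. No library was a copy of another.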

Additional observations from a re-analysis of the deposited data

How the results depend on the processing

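Counts of the 10 genes called moved with the fit. Without a filter on low counts, 2 genes rose in PMLGH against Model (1 in the main setting), 4 rose in GelMA against Model (2) and 5 fell in PMLGH against GelMA (1). DESeq2 called 3 lower in PMLGH against GelMA, and the fit to those 6 libraries alone called 5. With DESeq2, with a robust spread and on both FPKM scales, 1 gene fell in PMLGH against Model (2) and 0 in GelMA against Model (1), through Cytl1; the unadjusted edgeR p of Cytl1 in GelMA was 0.003. Leaving out 1 library at a time gave 1 to 2 higher and 1 to 2 lower in PMLGH against Model, 1 to 5 higher and 0 to 1 lower in GelMA against Model, and 0 higher and 1 to 4 lower in PMLGH against GelMA. The cause was not tested.

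Signs of values that had not passed turned in these settings. Cytl1 in PMLGH against GelMA was -0.02 on both FPKM scales and ran from -0.27 (without PMLGH 2) to 0.25 when 1 library was left out. In PMLGH against Model, without Model 1, the values were 0.01 for Col2a1, 0.07 for Col9a1, 0.01 for Col9a2 and -0.08 for Sox9; Col2a1 was 0.02 without PMLGH 2 and Comp -0.02 without Model 2. In PMLGH against GelMA, Acan was 0.04 without GelMA 3 and 0.07 without PMLGH 2, Sox9 0.22 without GelMA 3 and Matn1 0.11 without PMLGH 2. Sox9 in GelMA against Model was -0.16 without GelMA 3. The other ends of these leave-one-out ranges were -0.20, -0.21, -0.18 and 0.23 for Col2a1, Col9a1, Col9a2 and Sox9 in PMLGH against Model, -0.09, -0.29 and -1.01 for Acan, Sox9 and Matn1 in PMLGH against GelMA, and 0.36 for Sox9 in GelMA against Model.

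GelMA and PMLGH share the numbers 2, 3 and 4, which the labels do not tie to a litter or batch. Deviations of same-numbered libraries correlated at 0.01, 0.04 and -0.02, and not every library correlated best with its own number. With the replicate block 5 of the 10 genes fell, as without it in the same 6 libraries. Over all genes, PMLGH against GelMA called 578 in the main setting, 1037 with the replicate block, 1059 without it in those libraries, 914 with DESeq2, 858 without a filter and 384 on log2(FPKM + 0.1), and from 303 without PMLGH 3 to 1050 without Model 2 when 1 library was left out, so the background share of 3.44% was 6.42% in the fit to 6 libraries alone. Matn1 rests on 9 to 68 counts per library and Sox9 on 103 to 230; what depth and spread between libraries each add to their intervals was not tested.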
